A study of Homo sapiens with 6 samples.

Results

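The TRIM (tripartite motif) family is the subject here. It was taken as every gene symbol that starts with TRIM followed by a digit, which gave 75 of the 23228 genes in the count files. Per the labels, RNA came from MDA-MB-231, a long-established line of mesenchymal character that was derived from a triple-negative breast carcinoma. One group carried a lentiviral short hairpin RNA (shRNA) against SCUBE3, a secreted and cell-surface protein, and the other a scrambled shRNA. Both were grown in DMEM with 10% serum and kept under puromycin for a week, and each gave 3 libraries of polyadenylated RNA. Per the labels, the knockdown was checked on protein blots, which were not analysed here. The labels give neither the number of hairpins nor whether the replicates were separate cultures, so p-values here measure library-to-library spread alone, and that spread may be technical.

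A TRIM protein typically has an N-terminal RING domain, which recruits a ubiquitin-charged E2 enzyme and gives ubiquitin ligase activity, followed by 1 or 2 B-box zinc-binding domains and a coiled coil through which the proteins pair. The C-terminal part differs between members, binds the substrate, and divides the family into classes. Several members are induced by interferon and act in antiviral defence, and others regulate chromatin, microtubules or protein turnover in muscle and nerve.

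No drop of the targeted transcript was seen. For SCUBE3 there were 99, 107 and 101 reads in the knockdown-labelled libraries, against 96, 91 and 80 in scramble. Its log2 fold change was 0.03 ± 0.14, where the error is a standard error (SE), and its adjusted p was 0.871 in edgeR's quasi-likelihood test with Benjamini-Hochberg adjustment. Each direction below is therefore that of the labels, and a positive log2 fold change means higher in the libraries labelled knockdown. Reads in genes ran from 24249429 to 25520901 in the libraries labelled knockdown and from 21348509 to 24234762 in scramble. The groups differed widely: 85.9% of the 13606 tested genes had an adjusted p under 0.05, with 43.4% called higher in the libraries labelled knockdown and 42.5% called lower. All 8 genes listed as markers of MDA-MB-231 were read in every library, but at unequal levels. Of these, 4 were called higher in the libraries labelled knockdown and 4 lower. VIM (log2 fold change -0.87), MSN (-1.15), EGFR (-0.84) and AXL (-0.17) were lower. CD44 (0.86), CAV1 (1.10), LGALS1 (2.73) and S100A4 (7.78) were higher. S100A4, which encodes a calcium-binding motility protein, averaged 563 ± 7.41 CPM (the usual counts-per-million unit, scaled for library size and composition; SD, n = 3) in the libraries labelled knockdown and 2.58 ± 0.680 CPM in scramble. FOXA1, a luminal breast factor, averaged 0.0532 ± 0.0240 CPM in the libraries labelled knockdown and 21.8 ± 1.58 CPM in scramble. ESR1 and PGR, the steroid receptor genes, had 0 reads in the libraries labelled knockdown and were low in scramble, where ESR1 averaged 0.118 ± 0.0666 CPM and PGR 0.982 ± 0.107 CPM. Other genes listed as absent or low in the line went the other way. CDH1, which encodes E-cadherin, averaged 2.01 ± 0.332 CPM in the libraries labelled knockdown and 0.0458 ± 0.0478 CPM in scramble, and GATA3, another luminal factor, 15.5 ± 0.311 and 5.91 ± 0.134 CPM in libraries labelled knockdown and scramble. The labels do not say whether both groups came from 1 stock of the line, so a difference of stock and the shRNA cannot be told apart in any fold change given here. The summed level of 5 leukocyte markers was 6.14 to 6.85 CPM in the libraries labelled knockdown and 0.239 to 0.590 CPM in scramble. CD14 made up nearly all of it, 6.20 ± 0.433 against 0.234 ± 0.127 CPM, while PTPRC, the defining leukocyte marker, had at most 4 reads in any library. The part of these differences in the results below was not tested, and in bulk RNA fewer cells of a type and less RNA per cell cannot be told apart.

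Of the 75 TRIM genes, 22 had 0 reads in every library, 12 had reads but too few to test, and 41 were tested. Of these 41, the test called 22 higher in the libraries labelled knockdown and 13 lower, and 6 did not pass. The share that passed, 85.4%, was near the 85.9% of all genes. The median log2 fold change of the 41 was 0.34, beside 0.01 over all genes tested. It was 0.19 over the 39 members left by a filter of 1 CPM in 3 libraries, which drops TRIM7 and TRIM61. Changes were mostly moderate, with a median absolute log2 fold change of 0.51 beside 0.64 over all genes. At least a 2-fold difference was reached by 6 members that were higher and 2 that were lower, where 17.5% and 13.8% of all genes did so (31.2% in either direction). The libraries of both groups did not overlap for 36 of the 41 (85.8% of all genes). Of the tested members, TRIM22, TRIM29, TRIM7 and TRIM61 reached the low-count filter in the libraries labelled knockdown alone and TRIM9 in scramble alone, so each of these 5 had to differ to be tested. TRIM reads together made up 0.261% ± 0.00131 (SD, n = 3) of gene reads in the libraries labelled knockdown and 0.249% ± 0.00191 in scramble (exact two-sided permutation test, p = 0.1, the lowest value that 3 against 3 libraries can give). The share of all reads aligned to several places, which the files do not assign to genes, was 29.4% ± 0.175 in the libraries labelled knockdown and 34.1% ± 0.106 in scramble, and its part in the results was not tested.

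**Figure D1:**
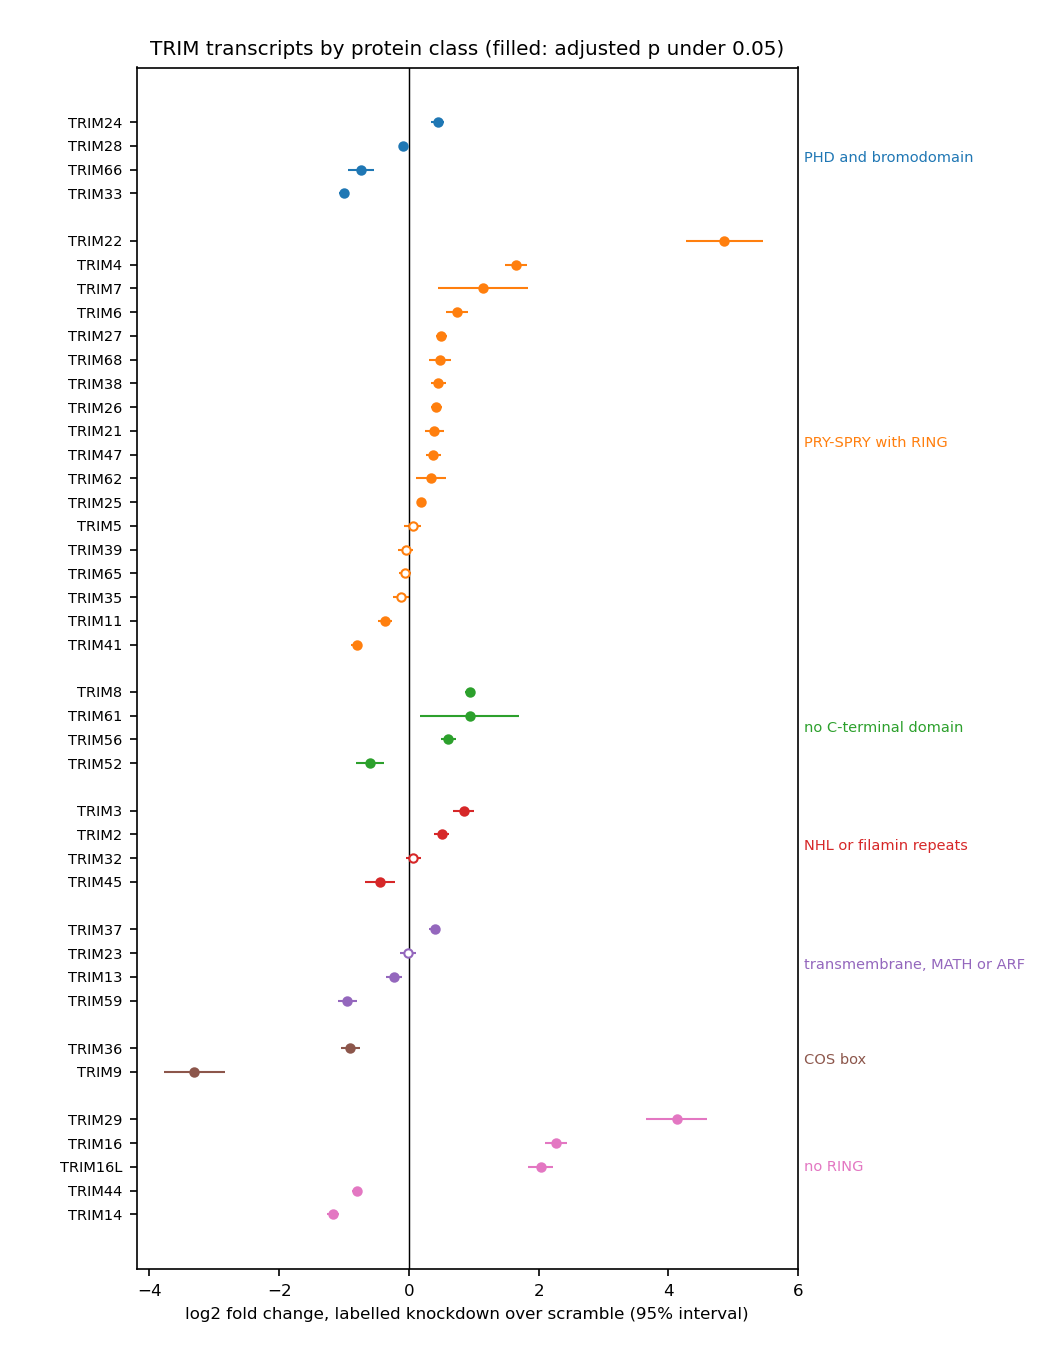
Log2 fold change of each of the 41 tested TRIM transcripts, libraries labelled knockdown over scramble (3 libraries each), grouped by protein class, with 95% intervals as lines and filled points for an adjusted p under 0.05. TRIM22 (4.86) and TRIM29 (4.13) lie farthest to the right and TRIM9 (-3.31) farthest to the left, while most members lie within 1 of 0.

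The 4 members with a PHD finger and a bromodomain moved in both directions. TRIM33, which binds receptor-activated SMADs and ubiquitinates SMAD4 in TGF-beta signalling, had 107, 103 and 105 CPM in the libraries labelled knockdown and 220, 200 and 210 CPM in scramble. The groups lay far apart, and the level fell by 49.9% in the libraries labelled knockdown (SE of the log2 fold change 0.04; edgeR adjusted p = 5.68e-25). TRIM66, a relative best known from mouse testis, had 8.94, 7.83 and 7.16 CPM in the libraries labelled knockdown and 12.7, 12.5 and 14.8 CPM in scramble. It was lower too (-0.74 ± 0.10, adjusted p = 8.66e-09). TRIM24, a co-regulator of nuclear receptors, had 72.3, 70.7 and 68.2 CPM in the libraries labelled knockdown and 48.1, 54.9 and 52.7 CPM in scramble. It was the 1 member of the class that was higher (0.44 ± 0.05, adjusted p = 1.71e-10).

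TRIM28, the corepressor that KRAB zinc finger proteins bring to DNA, was the most abundant member. It had 494, 516 and 506 CPM in the libraries labelled knockdown and 517, 548 and 549 CPM in scramble. The groups came within 1 CPM of each other, and the difference was small (log2 fold change -0.09 ± 0.03, edgeR adjusted p = 0.00608). The call for the TRIM28 log2 fold change was lost when library totals were used without a scaling factor (-0.04, adjusted p = 0.232) and without knockdown-labelled replicate 1 (-0.07, adjusted p = 0.0630).

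Per kilobase of exon, with lengths from GENCODE 29 as an approximation to the annotation used for counting, TRIM28 had 171 ± 3.73 CPM per kilobase in the libraries labelled knockdown and 182 ± 6.21 in scramble (SD, n = 3). Its level stood well above that of every other member in both groups. In the libraries labelled knockdown TRIM27 (55.0 ± 0.979), TRIM25 (47.4 ± 0.530) and TRIM8 (40.6 ± 1.01) followed. In scramble TRIM25 (41.7 ± 1.32) and TRIM27 (38.8 ± 2.32) came next, and their spreads left a gap of little more than 1 SD between them. TRIM33 (25.1 ± 1.23) and TRIM14 (24.2 ± 1.14) followed in scramble, within 1 SD of each other, whereas in the libraries labelled knockdown they had 12.6 ± 0.257 and 10.8 ± 0.240 CPM per kilobase.

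**Figure D2:**
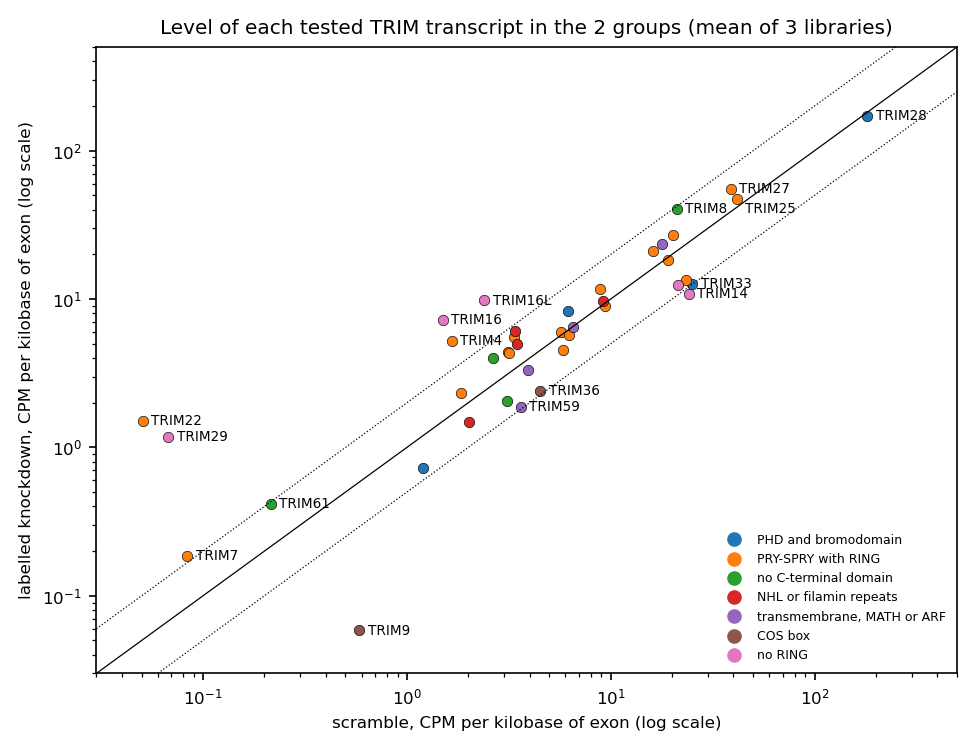
Mean level of each tested TRIM transcript in CPM per kilobase of exon, libraries labelled knockdown on the vertical and scramble on the horizontal axis (both log scales, n = 3 libraries each), coloured by protein class. The solid line marks equal levels and dotted lines a 2-fold difference. TRIM28 stands at the upper right, and TRIM22, TRIM29 and TRIM9 lie farthest from the solid line at low levels.

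The largest class has a RING and a C-terminal PRY-SPRY domain, the fold by which many members recognise pathogen proteins or other substrates. Of 18 tested members 12 were higher, 2 were lower and 4 did not pass, and the median of their log2 fold changes was 0.39. The 77.8% that passed lay below the 85.9% of all genes. By direction, 43.4% of all genes were called higher and 42.5% lower. TRIM22, an antiviral protein induced by interferon and by p53, had the largest fold change of all tested members. It had 4.69, 4.01 and 4.82 CPM in the libraries labelled knockdown and 0.126, 0.239 and 0.0900 CPM in scramble, where no library held more than 5 reads. This is about 29.1-fold, or 4.86 ± 0.30 on the log2 scale (SE; edgeR adjusted p = 3.28e-18). TRIM4, which ubiquitinates the RNA sensor RIG-I, had 22.8, 23.8 and 23.0 CPM in the libraries labelled knockdown and 7.12, 7.78 and 7.34 CPM in scramble. All 3 of its libraries labelled knockdown lay above all scramble libraries (1.65 ± 0.08, adjusted p = 5.54e-21). TRIM7, known for binding glycogenin, was read at under 1.1 CPM in every library and was higher as well (1.15 ± 0.34, edgeR adjusted p = 0.00228). Both TRIM22 and TRIM7 reached the low-count filter in the libraries labelled knockdown alone, so each had to differ to be tested.

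Other members of this class that were higher changed by less than TRIM7. TRIM25, which ubiquitinates RIG-I and is also an ISG15 ligase, had 275, 269 and 272 CPM in the libraries labelled knockdown and 238, 247 and 232 CPM in scramble. The groups did not overlap, yet the fold change was small (log2 fold change 0.19 ± 0.03, edgeR adjusted p = 1.64e-06). TRIM27, a ligase that works with the retromer and WASH complexes in endosomal sorting, averaged 163 ± 2.91 CPM in the libraries labelled knockdown and 115 ± 6.88 in scramble (0.50 ± 0.04; SD for means, SE for the fold change). TRIM6, which makes unanchored ubiquitin chains in interferon signalling, was higher by 0.74 ± 0.08. TRIM68 (0.49 ± 0.08), TRIM38 (0.45 ± 0.06), TRIM26 (0.42 ± 0.04), TRIM21 (0.39 ± 0.07) and TRIM47 (0.38 ± 0.06) were higher by similar amounts. TRIM62, a regulator of epithelial polarity, was higher by 0.34 ± 0.11 (adjusted p = 0.00604), and the TRIM62 log2 fold change lost its call without knockdown-labelled replicate 3 (adjusted p = 0.0715) or scramble replicate 1 (adjusted p = 0.0548).

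The 2 members of the class that were lower were TRIM41, a ligase for protein kinase C, and TRIM11. TRIM41 averaged 48.7 ± 0.721 CPM in the libraries labelled knockdown and 85.1 ± 1.35 CPM in scramble (SD, n = 3; log2 fold change -0.81 ± 0.05, edgeR adjusted p = 2.13e-19). TRIM11 was lower by less (-0.36 ± 0.05). The 4 that did not pass had 95% intervals that left room for small changes only. They ran from -0.07 to 0.19 for TRIM5, the retroviral capsid restriction factor, from -0.16 to 0.06 for TRIM39, from -0.16 to 0.03 for TRIM65 and from -0.25 to 0.01 for TRIM35, whose groups did not overlap although it did not pass.

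Members without a RING are as a rule grouped with the family by their B-boxes and coiled coils. The 5 listed as such held several of the largest differences, and the list was not checked against protein sequences. All 5 passed, 3 higher and 2 lower, in a comparison where 85.9% of all genes passed. TRIM29, known from basal epithelia and some epithelial tumours, had 6.93, 5.52 and 6.64 CPM in the libraries labelled knockdown and 0.211, 0.429 and 0.450 CPM in scramble. The scramble libraries held 5, 9 and 10 reads of it, and the log2 fold change was 4.13 ± 0.23 (SE, edgeR adjusted p = 2.55e-19). TRIM29 reached the low-count filter in the libraries labelled knockdown alone, so it had to differ to be tested. TRIM16, which binds galectin-3 when damaged endosomes are marked for autophagy, had 30.9, 33.0 and 35.001 CPM in the libraries labelled knockdown and 7.45, 5.92 and 7.11 CPM in scramble. It was 4.81-fold higher (2.27 ± 0.08, adjusted p = 2.08e-25).

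TRIM16L, a copy of TRIM16 on the same chromosome that RefSeq classes as a transcribed pseudogene, differed to nearly the same extent. It had 19.2, 19.1 and 20.0 CPM in the libraries labelled knockdown and 4.72, 4.63 and 4.91 CPM in scramble (log2 fold change 2.03 ± 0.09, edgeR adjusted p = 4.35e-22). The pair are near-identical over part of their length. Of all 50-base stretches of TRIM16 transcripts 28.9% also occur in another gene, mainly TRIM16L, and for TRIM16L 42.1% do, mainly in TRIM16. The reads were 50 bases long, and reads aligned to several places are not assigned to genes in these files. Reads of the shared stretches may therefore be missing from both counts, and both levels may be understated. Whether reads of TRIM16 or TRIM16L were placed on the other copy was not tested. In GENCODE 29, TRIM16 also shares 29.2% of its exon bases with another annotated gene on its strand.

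TRIM14 and TRIM44 went the other way. TRIM14, a mitochondrial adaptor of the antiviral protein MAVS, had 52.3, 53.9 and 51.7 CPM in the libraries labelled knockdown and 120, 123 and 112 CPM in scramble. No library of either group came near the other group (log2 fold change -1.17 ± 0.04, edgeR adjusted p = 4.77e-25). TRIM44, which carries a ubiquitin-binding zinc finger and is known for removing rather than adding ubiquitin, had 166, 151 and 164 CPM in the libraries labelled knockdown and 287, 264 and 284 CPM in scramble (-0.80 ± 0.04, adjusted p = 2.49e-21).

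**Figure D3:**
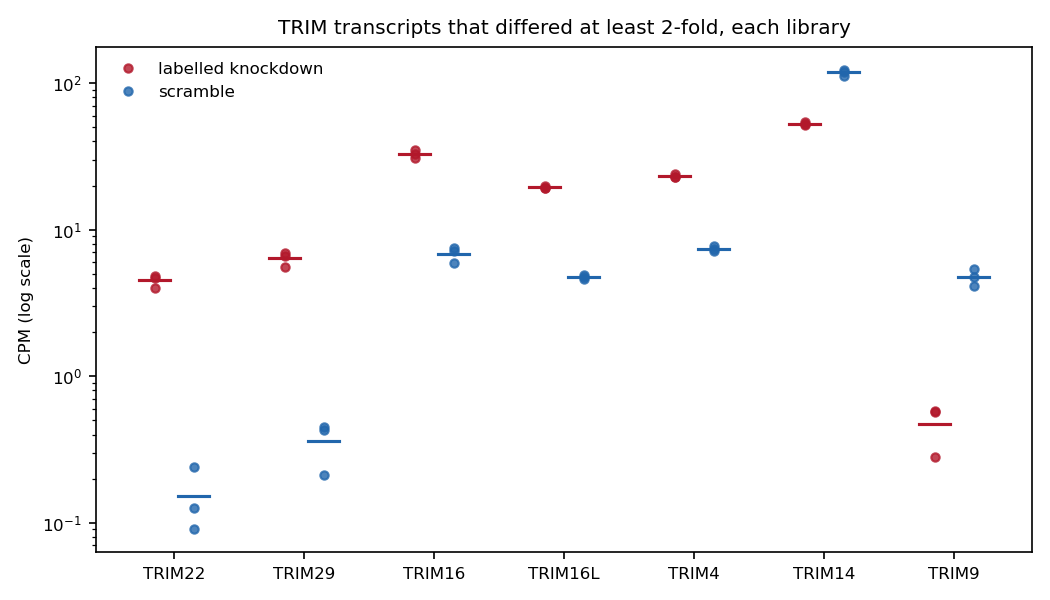
CPM in each library (points, log scale) and group means (bars, n = 3) for the 7 TRIM transcripts that passed the threshold, differed at least 2-fold and reached 1 CPM in the higher group, with libraries labelled knockdown left of scramble for each gene. TRIM22, TRIM29, TRIM16, TRIM16L and TRIM4 were higher and TRIM14 and TRIM9 lower in the libraries labelled knockdown, and no gene's groups overlap.

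Of 8 members with a COS box, which binds microtubules, only 2 could be tested, and both were lower. Of all genes tested, 85.9% passed and 42.5% were called lower. TRIM9, a brain-enriched ligase of axon guidance, had 0.281, 0.579 and 0.566 CPM in the libraries labelled knockdown and 4.72, 4.15 and 5.40 CPM in scramble. That was the largest negative change of the 41 (log2 fold change -3.31 ± 0.23, edgeR adjusted p = 2.63e-16). TRIM9 reached the low-count filter in scramble alone, so it had to differ to be tested. TRIM36, also associated with microtubules, averaged 13.6 ± 0.378 CPM in the libraries labelled knockdown and 25.6 ± 1.56 CPM in scramble (SD, n = 3; -0.91 ± 0.07, adjusted p = 1.33e-14). The other 6 of the class, among them the muscle RING-finger genes TRIM54, TRIM55 and TRIM63, were not tested. TRIM63, a ligase of muscle wasting, had 9, 10 and 15 reads in the libraries labelled knockdown and 4, 1 and 8 reads in scramble. Summed reads of TRIM54 and TRIM55 were also more in the libraries labelled knockdown, and those of TRIM46 fewer, all at low counts.

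Of the members with no known C-terminal domain, 3 were higher and 1 lower of 4 tested, where 85.9% of all genes passed. TRIM8, a nuclear ligase that promotes NF-kB signalling through TAK1, had 303, 318 and 310 CPM in the libraries labelled knockdown and 155, 165 and 166 CPM in scramble. It was the member with the smallest adjusted p of all (log2 fold change 0.94 ± 0.03, edgeR adjusted p = 1.13e-25). TRIM56, an antiviral ligase that acts with STING, averaged 44.2 ± 1.06 CPM in the libraries labelled knockdown and 29.1 ± 2.36 CPM in scramble (SD, n = 3; 0.61 ± 0.06). TRIM52 was lower (-0.60 ± 0.10). TRIM61, at 0.662 ± 0.0638 and 0.341 ± 0.0710 CPM in libraries labelled knockdown and scramble, passed narrowly (0.94 ± 0.38, adjusted p = 0.0222). The TRIM61 log2 fold change lost its call with DESeq2 (adjusted p = 0.0892) and without knockdown-labelled replicate 3 (0.0729), scramble replicate 2 (0.0703) or scramble replicate 3 (0.0594). For TRIM61, 27.7% of 50-base stretches occur elsewhere, mainly in the pseudogene TRIM60P14. It reached the low-count filter in the libraries labelled knockdown alone, so TRIM61 too had to differ to be tested.

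Of the members with NHL or filamin repeats, TRIM3 and TRIM2 were higher, TRIM45 was lower and TRIM32 did not pass. TRIM3, best known in neurons, averaged 21.0 ± 0.604 CPM in the libraries labelled knockdown and 11.7 ± 1.37 CPM in scramble (SD, n = 3; log2 fold change 0.84 ± 0.08). TRIM2, a ligase for neurofilament light chain, averaged 39.4 ± 0.933 and 27.7 ± 0.959 CPM in libraries labelled knockdown and scramble (0.51 ± 0.06). TRIM45 had a log2 fold change of -0.45 ± 0.12 (edgeR adjusted p = 5.48e-04). TRIM32, mutated in a limb-girdle muscular dystrophy, had a 95% interval of -0.05 to 0.19. TRIM71, a stem cell factor with NHL repeats, was not read in any library. A count of 0 over a group allows up to 3 reads, or 0.0397 CPM in the libraries labelled knockdown and 0.0448 CPM in scramble (counting error only).

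The remaining 4 members have a transmembrane stretch (TRIM13, TRIM59), a MATH domain (TRIM37) or an ARF GTPase domain (TRIM23). TRIM59 averaged 13.3 ± 0.0472 CPM in the libraries labelled knockdown and 25.6 ± 1.19 CPM in scramble (SD, n = 3; log2 fold change -0.95 ± 0.07, edgeR adjusted p = 2.35e-15). On either strand 38.2% of its exon bases lie in exons of other genes, including SMC4, and whether strand was used in counting is not given in the sources used here. TRIM13, an endoplasmic reticulum ligase, was lower by less (-0.23 ± 0.06). TRIM37, which acts in peroxisome and centrosome biology, averaged 115 ± 5.21 and 87.7 ± 1.42 CPM in libraries labelled knockdown and scramble (0.40 ± 0.04). TRIM23 was the least changed of all tested members, with 27.2 ± 0.682 and 27.4 ± 0.778 CPM in libraries labelled knockdown and scramble and a 95% interval of -0.13 to 0.11 for the log2 fold change.

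Among untested members, reads were few. TRIM69 had 5, 7 and 4 reads in the libraries labelled knockdown and 0 reads in scramble. Its level was 4.72 times a floor of 3 reads over the scramble group. This ratio leaves out the counting error of the reads in the libraries labelled knockdown, so it is not a lower limit. TRIM54 had 4, 2 and 6 reads in the libraries labelled knockdown and 0 reads in scramble, 3.54 times the same floor with the same limit. TRIM55 had 10 reads in all in the libraries labelled knockdown and 3 in scramble, a ratio of 2.95 with an exact 95% counting interval of 0.760 to 16.7. TRIM46 had 3 reads in each library labelled knockdown and 5, 4 and 3 reads in scramble. The other untested members with reads were TRIM34, TRIM10, TRIM17, TRIM49, TRIM49L2, TRIM58 and TRIM72, and each but TRIM34 had at most 2 reads in any library.

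Several TRIM genes stand next to each other in the order of protein-coding genes, and neighbours differed in their fold changes. The order is RefSeq's for GRCh38.p14, with noncoding genes left out, and serves for order alone because hg19 underlies the counts. By this order TRIM5, TRIM6, TRIM34 and TRIM22 are adjacent on chromosome 11. Their log2 fold changes were 0.06 for TRIM5, 0.74 for TRIM6 and 4.86 for TRIM22. TRIM34 had 5, 8 and 0 reads in the libraries labelled knockdown and 1, 0 and 4 reads in scramble. Of its exon bases 86.85% also belong to the readthrough gene TRIM6-TRIM34, which was listed at 0 in all 6 libraries. Reads that fall in more than 1 gene are set aside in these files, so the level of TRIM34 may be understated. The same holds for TRIM6, which shares 31.7% of its exon bases with TRIM6-TRIM34, and for TRIM39, which shares 32.99% with TRIM39-RPP21. TRIM61 shares 33.2% with another annotated gene on its strand. On chromosome 5, TRIM7 was higher (1.15) while its neighbour TRIM41 (-0.81) and the nearby TRIM52 (-0.60) were lower. On chromosome 17, TRIM47 was higher (0.38) and the adjacent TRIM65 did not pass (-0.06). Of the exon bases of TRIM47, 40.6% lie opposite another gene's exons, whose reads could be mixed with its own if strand was not used. On chromosome 6, TRIM26 was higher (0.42) and the adjacent TRIM39 did not pass (-0.05). TRIM31, TRIM40 and TRIM15, in the same run of neighbours, had 0 reads.

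A list of 10 members known to be induced by interferon held TRIM5, TRIM14, TRIM21, TRIM22, TRIM25, TRIM26, TRIM34, TRIM38, TRIM56 and TRIM69. Of the 8 tested, 6 were higher, TRIM14 was lower and TRIM5 did not pass. The 87.5% that passed was near the 85.9% of all genes, and 43.4% of all genes were called higher and 42.5% lower. TRIM22, among these 6, reached the low-count filter in the libraries labelled knockdown alone. The median log2 fold change of the 8 was 0.41, and the list was not tested as a set. The promoters of these genes are shown because the interferon-stimulated response element, to which the interferon-activated factor ISGF3 binds, lies close to the start of several of them. The core searched was GAAA, any 2 bases and GAAA again, on both strands, so that its reverse form is TTTC, any 2 bases and TTTC, in windows of 250 bases before to 50 after each gene start (RefSeq, GRCh38.p14). It was found in 10 of the 75 windows of TRIM members and in 3.57% of the 35116 windows of all genes. The 75 windows belong to 56 of the 75 members, since some members have several and others none. Counted by gene, 10 of the 56 held it, beside 4.38% of all genes with a window. TRIM22 was the listed member without a window, so whether it carries the motif is not known here. Of 9 listed members with a window in the table, 6 held it. The 4 of these that could be tested, TRIM21, TRIM26, TRIM5 and TRIM14, are printed 5′ to 3′ along the gene with the match in capitals.
TRIM21: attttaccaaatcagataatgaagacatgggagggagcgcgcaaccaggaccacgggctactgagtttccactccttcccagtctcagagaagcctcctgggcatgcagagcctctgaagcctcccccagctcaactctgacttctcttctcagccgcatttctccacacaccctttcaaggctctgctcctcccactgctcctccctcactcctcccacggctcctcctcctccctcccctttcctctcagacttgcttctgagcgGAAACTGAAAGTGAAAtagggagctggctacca
TRIM26: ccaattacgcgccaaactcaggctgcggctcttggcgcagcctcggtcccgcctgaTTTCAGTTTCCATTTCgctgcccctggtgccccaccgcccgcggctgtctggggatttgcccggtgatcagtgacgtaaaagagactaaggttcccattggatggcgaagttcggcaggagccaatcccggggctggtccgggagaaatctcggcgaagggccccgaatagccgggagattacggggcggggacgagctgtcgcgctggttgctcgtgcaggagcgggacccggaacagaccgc
TRIM5: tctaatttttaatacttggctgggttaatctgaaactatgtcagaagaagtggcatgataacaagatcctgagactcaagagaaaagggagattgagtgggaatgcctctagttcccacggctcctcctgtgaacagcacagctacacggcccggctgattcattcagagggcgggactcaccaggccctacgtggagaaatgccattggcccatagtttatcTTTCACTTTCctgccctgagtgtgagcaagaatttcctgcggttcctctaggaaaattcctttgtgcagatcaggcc
TRIM14: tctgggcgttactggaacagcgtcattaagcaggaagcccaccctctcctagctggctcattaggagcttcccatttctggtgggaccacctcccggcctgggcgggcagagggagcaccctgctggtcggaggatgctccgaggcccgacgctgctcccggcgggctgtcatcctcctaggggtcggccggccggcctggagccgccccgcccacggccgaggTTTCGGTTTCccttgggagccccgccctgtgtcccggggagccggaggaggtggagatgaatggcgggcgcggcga
The windows are chr11:4393653-4393952 (minus strand) for TRIM21, chr6:30213357-30213656 (minus strand) for TRIM26, chr11:5685025-5685324 (minus strand) for TRIM5 and chr9:98119173-98119472 (minus strand) for TRIM14. In TRIM21 and TRIM26 a pair of matches overlap to form a longer run. The first match begins at base 18 after the start in TRIM21, and 194, 27 and 26 bases before it in TRIM26, TRIM5 and TRIM14. A match is a description of the letters and not of binding.

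Tested transcripts in which this motif was found moved in both directions. Members without a window could not be searched, and a part of the motif in the changes was not tested. TRIM21, the cytosolic antibody receptor, had 23.5, 21.6 and 22.1 CPM in the libraries labelled knockdown and 16.8, 17.3 and 17.1 CPM in scramble (edgeR adjusted p = 2.97e-06). TRIM26 had 93.9, 96.9 and 97.8 CPM in the libraries labelled knockdown and 72.0, 74.8 and 68.2 CPM in scramble (adjusted p = 1.15e-11). Both were higher with no overlap of the groups. TRIM5 had 24.0, 23.6 and 22.9 CPM in the libraries labelled knockdown and 23.1, 22.8 and 21.7 CPM in scramble, where the groups overlap (adjusted p = 0.387). TRIM14, with a match close to its start, was lower. A match was also present in TRIM16 and in a single window of TRIM2, which has several. Both TRIM16 and TRIM2 were higher. TRIM44, which held a match too, was lower.

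Genes that work with TRIM proteins were read beside them. Of 11 interferon receptor and signalling genes 8 were higher and 2 lower (median log2 fold change 0.62). Among all genes tested, 43.4% were called higher and 42.5% lower. IRF1, a factor that drives interferon response genes, averaged 75.9 ± 2.39 CPM in the libraries labelled knockdown and 20.3 ± 1.995 CPM in scramble (SD, n = 3; log2 fold change 1.90 ± 0.06). The receptor genes IFNGR2 (1.27 ± 0.05) and IFNAR1 (0.81 ± 0.05) and the kinase gene JAK1 (0.62 ± 0.04) were higher. STAT2, which encodes a transducer of the interferon receptors, did not pass (-0.04 ± 0.04). The receptor gene IFNAR2 was higher by less (0.27 ± 0.08), and the kinase gene JAK2 was lower (-0.50 ± 0.10).

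Of 17 genes of RNA and DNA sensing, in which TRIM25, TRIM4, TRIM14 and TRIM56 act, 10 were higher and 6 lower (median log2 fold change 0.26). Among all genes tested, 43.4% were called higher and 42.5% lower. DDX58, which encodes RIG-I, averaged 129 ± 3.13 CPM in the libraries labelled knockdown and 46.8 ± 1.01 CPM in scramble (SD, n = 3; 1.46 ± 0.04). The ubiquitin-like modifier gene ISG15 (2.39 ± 0.06) and the kinase gene IKBKE (2.27 ± 0.05) were higher too. The TAK1 gene MAP3K7 (-1.23 ± 0.04) was lower, and the factor gene IRF3 did not pass (-0.01 ± 0.05). MAVS, whose product TRIM14 and TRIM25 signal through, was higher by little (0.21 ± 0.03), and the zinc finger antiviral protein gene ZC3HAV1 was lower by little (-0.13 ± 0.04).

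Silencing partners of TRIM28 were lower with few exceptions. Of 12 tested, 10 were lower, HDAC1 was higher (log2 fold change 0.39 ± 0.04) and CBX3 did not pass (-0.01 ± 0.03), with a median of -0.38. Of all genes tested, 42.5% were called lower, and 85.9% passed in either direction, beside 91.7% of this list. The heterochromatin protein gene CBX5 averaged 117 ± 5.66 CPM in the libraries labelled knockdown and 307 ± 10.4 CPM in scramble (SD, n = 3; -1.39 ± 0.04). The remodeller gene CHD3 (-0.92 ± 0.03), the deacetylase gene HDAC2 (-0.77 ± 0.03) and ATF7IP (-1.10 ± 0.04), which encodes a partner of the methyltransferase SETDB1, were lower. SETDB1 itself (-0.25 ± 0.06) and CBX1 (-0.20 ± 0.04) were lower by less.

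E2 enzymes, which pass ubiquitin to the RING, moved both ways: 7 of 14 passed as higher and 5 as lower. The median log2 fold change of the 14 was 0.13. Among all genes tested, 43.4% were called higher and 42.5% lower. UBE2D4 was higher (1.63 ± 0.08). UBE2G2, an enzyme of endoplasmic reticulum protein degradation (-1.24 ± 0.03), and UBE2N (-0.79 ± 0.03), which builds signalling chains with UBE2V1 or UBE2V2, were lower. UBE2E3 was lower by less (-0.46 ± 0.04). The smallest changes were those of UBE2W, which did not pass (0.11 ± 0.06), UBE2E2 (0.14 ± 0.06) and UBE2L6 (-0.14 ± 0.05), an E2 for ISG15.

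Family members and relatives that go under other symbols were listed apart, 16 in all with 7 tested. Of these, 2 were higher and 4 lower (median log2 fold change -0.18). Their domains were not checked against protein sequences. The count of lower ones among the TRIM family and relatives under other symbols was 2 with library totals, with DESeq2 and without knockdown-labelled replicate 1 or 2. PML, also known as TRIM19 and the scaffold of nuclear bodies, averaged 93.1 ± 3.82 CPM in the libraries labelled knockdown and 67.4 ± 2.53 CPM in scramble (SD, n = 3; 0.47 ± 0.04). RNF135, a RIG-I ligase, was higher (0.61 ± 0.07). The microtubule-binding ligase gene MID2 was lower (-0.67 ± 0.08) and TRIML2 fell to 2.94 ± 0.547 CPM in the libraries labelled knockdown, against 20.9 ± 2.60 CPM in scramble (-2.83 ± 0.12). MID1 (-0.09 ± 0.04), a paralog of MID2, was lower by little and FSD1L did not pass (-0.18 ± 0.10). The share called in these lists, from 85.7% to 94.1%, was near or somewhat above the 85.9% of all genes, and the lists were not tested as sets. By direction, 43.4% of all genes were called higher and 42.5% lower.

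**Figure D4:**
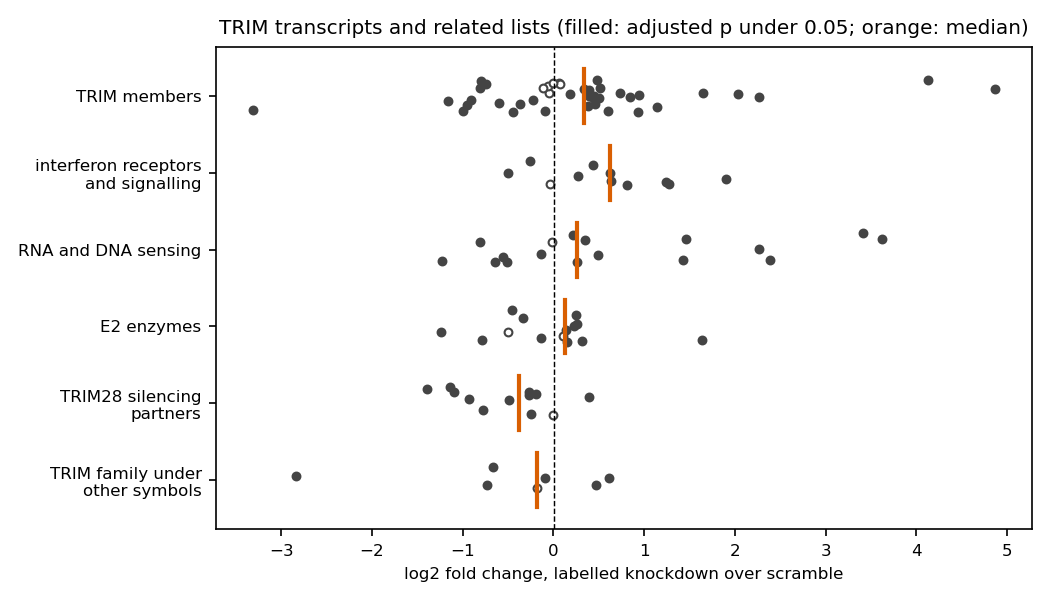
Log2 fold change of each tested gene (points, filled for an adjusted p under 0.05), libraries labelled knockdown over scramble (3 each), for the TRIM members and 5 related lists, with list medians in orange and the median of all genes tested as a dashed line. The median was 0.34 for TRIM members, 0.62 for interferon signalling genes and -0.38 for silencing partners of TRIM28; points are spread vertically only to show them apart.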

How the data were processed

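Sequencing was single-read over 50 bases, from libraries of a strand-keeping mRNA kit, per the labels' protocols. The submitters' processing notes name hg19 as build and bcl2fastq, HTSeq and TopHat2 (2.0.8b) as tools; strand use and annotation at the counting step are not stated there. The authors deposited unnormalized counts, 1 whole number for each gene symbol, with 5 summary lines that were set aside.

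The TRIM genes and all lists were chosen with earlier results of these data known. Symbols absent from the count files were matched through RefSeq synonyms. After filterByExpr, 13606 genes entered edgeR 4.0.16 (R 4.3.3) with TMM scaling and a robust quasi-likelihood F test of group, two-sided. P-values were adjusted by Benjamini and Hochberg's method over all of them, with a threshold of 0.05. The SE was obtained as the log2 fold change over the square root of F. The fit was tested on simulated counts in which few genes changed. That test does not cover scaling under changes as wide as those here.

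Values in every library are given for members past the threshold with an absolute log2 fold change of at least 1 and 1 CPM in the higher group, for the 4 most abundant members and for the 4 with a bromodomain. From each related list the 4 genes of smallest adjusted p and the 3 of smallest change are named, except 1 gene that is not reported here. TRIM21, TRIM26 and TRIM5 were added for their promoters, and the low-count members shown in full were chosen after their values were seen. JAK2 was added as a lower gene of its list. A planned search for the RING pattern in protein sequences was not run. Alternatives were DESeq2's size factors, library totals, no filter, at least 1 CPM in 3 libraries, DESeq2 itself (1.42.0), voom from limma 3.58.1, replicate number as a block, a test against a 1.5-fold change, and every library left out in turn. Counts of libraries within a group varied beyond sampling error, with chi-square per degree of freedom of 1.67 to 3.45, and none were merged.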

Additional observations from a re-analysis of the deposited data

How the results depend on the processing

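Under 14 alternatives no called TRIM member changed direction. With a test against a 1.5-fold change (edgeR glmTreat) the counts fell to 9 higher and 8 lower, since that test asks for a larger change. Under the other alternatives 20 to 25 members were higher and 12 or 13 lower. The upper value came without a low-count filter, where 53 members were tested. Leaving out each library in turn gave 20 to 22 higher and 12 to 13 lower. TRIM28, TRIM61 and TRIM62 were the members that lost their call under some alternative other than the 1.5-fold test, as given above. With the replicate number as a block, 22 were higher and 13 lower. Deviations of same-numbered libraries correlated at 0.0779, 0.0623 and -0.00188 across genes, so the numbers were not taken to pair the libraries. Scaling by library totals moved the median of all genes to 0.06. SCUBE3 ran from -0.05 (without scramble replicate 3) to 0.08 and did not pass under any alternative. Counts near 0 limit TRIM22, TRIM29 and TRIM9, whose fold changes depend on 10 to 36 reads in the lower group.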
